A study of Mus musculus with 12 samples.

Results

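Glycolysis and glycogen metabolism were followed through 33 genes, which were taken from the gene table by symbol. The 33 symbols matched 34 of the table's 54532 gene identifiers, since Aldoa has a second identifier, and all 34 were among the 16393 genes with enough reads to be tested. The rule uses gene names and no measured value. RNA came from whole lysates of the tibialis anterior, a fast muscle of the mouse lower leg. The muscles had been injected with glycerol 5 days earlier, an injury after which fat forms between the regenerating fibres. The 6 knockout libraries carry the genotype label "FAP no ppary", a conditional deletion of Pparg in fibro-adipogenic progenitors (FAPs), mesenchymal cells of the muscle interstitium from which its adipocytes arise. The 6 control libraries are labelled "Wildtype". Both groups have the strain entry "129svlmJ", and both received glycerol, so no uninjured muscle is part of the comparison. The labels name neither the Cre driver nor the age of the mice. Nothing in them states that each library is a different mouse, so the p-values speak for the spread among these samples, which may be technical.

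Glycolysis splits glucose into pyruvate and yields ATP without oxygen, and lactate dehydrogenase, pyruvate dehydrogenase and its kinases set the fate of that pyruvate. Skeletal muscle also stores glucose as glycogen, built by glycogenin, glycogen synthase and the branching enzyme and broken down by glycogen phosphorylase, which phosphorylase kinase switches on. For many of these steps mature fibres use a form of the enzyme of their own (Pfkm, Pgam2, Eno3, Pygm), while most other cells use a ubiquitous form (Pfkl, Pgam1, Eno1, Pygb). In whole muscle a lower level of a transcript can mean fewer cells of a type or less RNA per cell, and these cannot be told apart.

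The deposited counts summed to between 15720000 and 29790000 reads in the knockout libraries and to between 17980000 and 25610000 in the controls. Levels are given as CPM, a gene's share of the reads of its library after scaling by the trimmed mean of M-values (TMM). Pparg, the targeted gene, had 15.6, 23.2 and 43.1 CPM (lowest, median and highest library) in the knockout and 45.0, 56.3 and 67.4 CPM in the control, with no overlap. Its log2 fold change, given here and throughout as knockout minus control, was -1.12 (edgeR quasi-likelihood test with Benjamini-Hochberg adjustment over all genes, adjusted p = 0.0299). The summed level of 10 adipocyte markers ranged from 554 to 2044 CPM in the knockout and from 2680 to 4651 CPM in the control. Of these adipocyte markers 1 fell and all 10 had negative differences (9 at an unadjusted p under 0.05), with a median log2 fold change of -1.60. The summed levels of regenerating fibre (7347 to 13840 CPM in the knockout, 6482 to 10970 CPM in the control), macrophage (5029 to 8616 CPM in the knockout, 6726 to 8131 CPM in the control) and FAP markers (6411 to 11080 CPM in the knockout, 8281 to 11570 CPM in the control) overlapped between the groups. Differences were positive for 8 of 8 regenerating fibre markers (3 at an unadjusted p under 0.05) and 8 of 8 slow fibre markers (0), and negative for 7 of 8 FAP markers (3) and 5 of 8 macrophage markers (0), and 0 of these 4 lists' genes passed by edgeR. Mature fast fibre markers were present in every library, but unevenly. Their sum was between 13650 and 17250 CPM in knockout 6, control 2 and control 6, and between 32100 and 52190 CPM in the other 9 libraries. At 54 loci with discrete high and low levels, none of them a member, 5 pairs of libraries within a group shared 77.8% to 100% of states, against 38.9% to 75.9% in the other 61 pairs of the 12 libraries. The 5 pairs were picked as best matches of each other within a group, with at least 75% of states shared. Their place above the others therefore follows largely from this choice. Whether the 5 pairs share an animal or litter is not given by the labels.

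None of the 33 genes passed the test between knockout and control. Of all 16393 genes, 131 passed (0.799%), 8 of them higher (0.0488%) and 123 lower (0.75%) in the knockout, so a share of that size would amount to less than 1 of the 33. That background is itself unsteady: 399 genes passed by DESeq2, 6 to 214 by edgeR with 1 library left out, and 0 with counts summed over the sets of libraries that share states (1127 at an unadjusted p under 0.05), while the members that passed were 0 in each of these fits. The edgeR adjusted p-values of the 33 lay between 0.274 and 0.999. At an unadjusted p under 0.05 there were 2 members, Eno1 with a positive and Pygl with a negative difference, and 9.47% of all genes. DESeq2 also passed 0 members, with 3 of 33 (9.09%) at an unadjusted p under 0.05, against 10.4% of all genes in that fit. Limma-voom passed 0 members, with 7 of 33 (21.2%) at an unadjusted p under 0.05, against 15.2% of all genes. The log2 fold changes ran from -0.43 to 0.51 with a median of 0.07, and 22 were positive and 11 negative. Over all genes the median was -0.001 and 49.5% were positive. No member's groups of 6 libraries were free of overlap, as was the case for 1.43% of all genes.

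The intervals show how large a difference these libraries could have missed. For 29 of the 33 members (87.9%) the 95% interval of the fold change lay within 2-fold in either direction, and for 17 within 1.5-fold. Over all genes 88.1% lay within 2-fold. The muscle-enriched forms were measured less tightly than the ubiquitous or non-muscle forms. The 10 muscle-enriched forms were Hk2, Pfkm, Aldoa, Pgam2, Eno3, Fbp2, Ppp1r3a, Pygm, Phka1 and Phkg1. The 9 ubiquitous or non-muscle forms were Hk1, Pfkl, Pfkp, Aldoc, Pgam1, Eno1, Ldhb, Pygl and Pygb. The remaining members, Ldha and Gys1 among them, were in neither class. Standard errors of the log2 fold change were 0.21 to 0.63 for the 10 muscle-enriched forms and 0.09 to 0.23 for the 9 ubiquitous or non-muscle forms. The median log2 fold change was 0.10 for the muscle-enriched forms (8 of 10 positive) and -0.06 for the ubiquitous or non-muscle forms (4 of 9 positive).

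**Figure D1:**
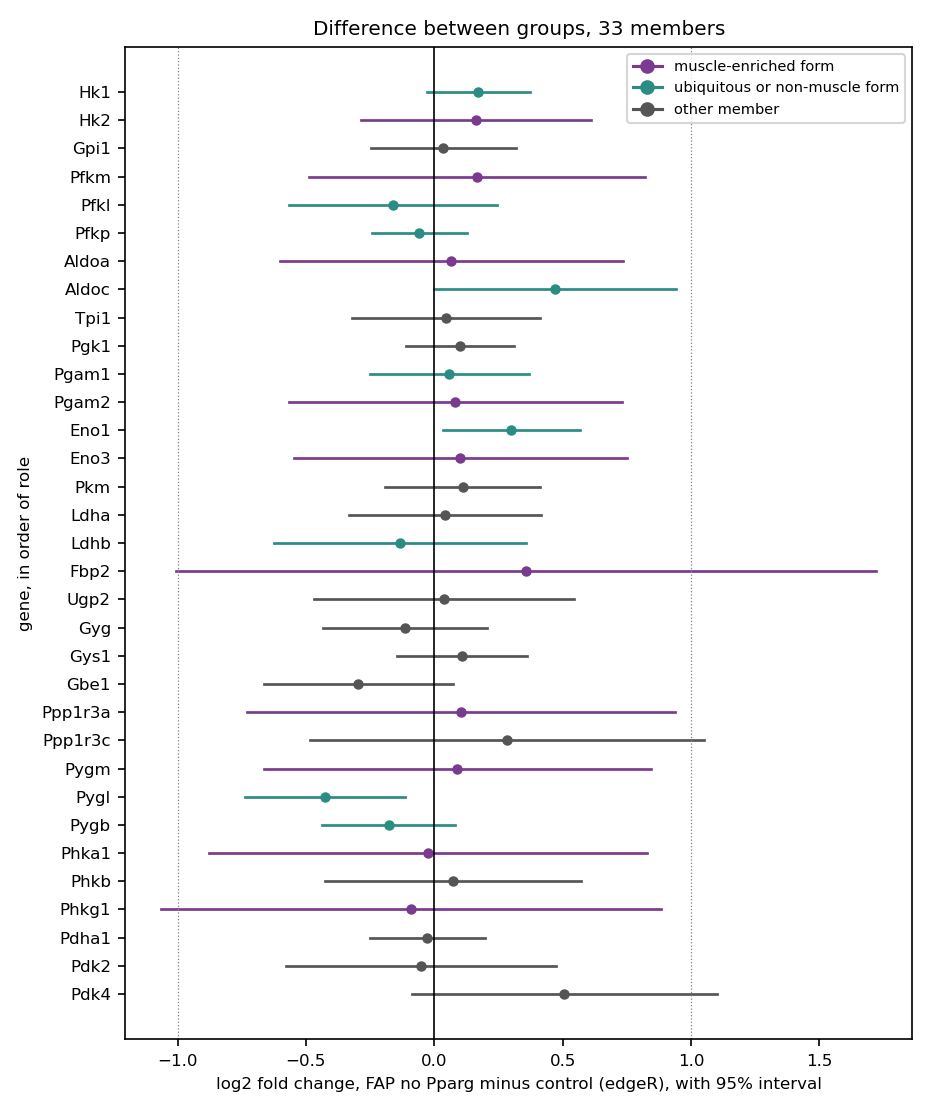
Log2 fold change of each of the 33 members (x axis, knockout minus control, edgeR) with its 95% interval; the dotted lines mark 2-fold. The intervals of the muscle-enriched forms are wide and all span 0, and only those of Eno1 and Pygl lie wholly on 1 side of it.

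The spread of the muscle-enriched forms followed the fast fibre markers of the library, in both groups. All 10 of them were lower in knockout 6, control 2 and control 6 than in each of the other 9 libraries. Of all 33 members, 22 (66.7%) had these 3 libraries below the other 9, against 6.08% of all tested genes. Pygm, the muscle glycogen phosphorylase, had 455 to 563 CPM in the 3 libraries and 1088 to 1723 CPM in the 9. Phkg1, the catalytic subunit of phosphorylase kinase in muscle, had 22.3 to 31.0 CPM in the 3 and 64.9 to 134 CPM in the 9. The order was not confined to the muscle-enriched forms. Among members in neither class it was shown by Gpi1, Tpi1, Pgk1, Pkm, Ldha, Ugp2, Gyg, Gys1, Ppp1r3c, Phkb, Pdk2 and Pdk4, but not by Gbe1 and Pdha1. Gpi1 had 531 to 624 CPM in the 3 libraries and 708 to 866 CPM in the 9. None of the 9 ubiquitous or non-muscle forms showed this order, and Pfkl and Pygb showed the opposite one. Pfkl had 81.2 to 108 CPM in the 3 libraries and 41.0 to 71.0 CPM in the 9. The 3 libraries were set apart after their values had been seen, so these ranges are a description with no test. The count of members that passed was 0 with all 12 libraries, without these 3, and with the fast fibre marker level as a covariate. At an unadjusted p under 0.05 the covariate fit had 9 of the 33 members and 2123 of all genes. The main fit had 2 members and 1552 genes, and the fit without the 3 libraries 3 members and 1618 genes. With the covariate, the edgeR adjusted p was 0.0965 for Pygl and 0.107 for Gbe1.

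**Figure D2:**
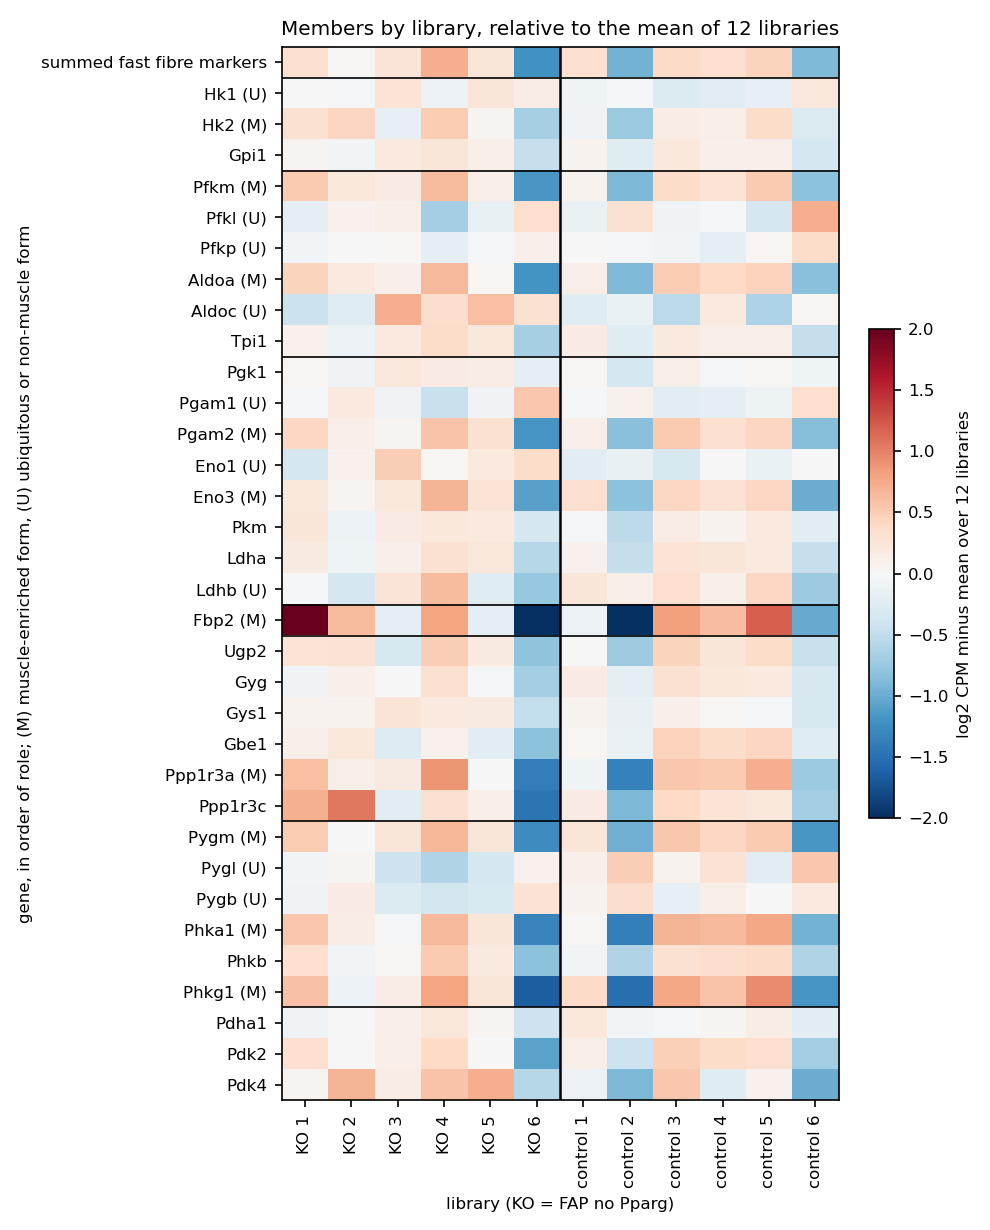
Level of each member in each library (colour, log2 CPM minus the mean over the 12 libraries), with the summed fast fibre markers in the top row, the 6 knockout libraries on the left and the 6 controls on the right. The blue columns are knockout 6, control 2 and control 6, where the muscle-enriched forms (M) lay below all other libraries while Pfkl and Pygb lay above them.

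The promoters of 2 pairs of enzyme forms, Pgam2 with Pgam1 and Pygm with Pygl, are shown as examples. In both, the muscle form had the 3 libraries low in fast fibre markers below the other 9. The other form overlapped: Pgam1 had 105 to 144 CPM in the 3 and 72.1 to 113 CPM in the 9. For Pygl these ranges were 40.3 to 55.4 CPM and 25.0 to 46.6 CPM. Further pairs, such as Hk2 with Hk1, parted likewise. The windows are the 250 bases before the transcription start, from RefSeq on GRCm38.p6, read 5′ to 3′ on the gene's strand. Capitals mark the E-box CANNTG bound by myogenic factors, the MEF2 consensus and the letters ACGTG of the hypoxia response element, each searched on both strands (CACGTG holds both an E-box and ACGTG).
Pgam2, muscle phosphoglycerate mutase, chr11:5803797-5804046, minus strand: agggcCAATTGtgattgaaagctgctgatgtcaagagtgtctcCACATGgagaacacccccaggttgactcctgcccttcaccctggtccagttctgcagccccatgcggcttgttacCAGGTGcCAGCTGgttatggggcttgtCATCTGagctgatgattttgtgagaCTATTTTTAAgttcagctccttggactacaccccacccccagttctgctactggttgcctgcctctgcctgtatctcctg
Pgam1, ubiquitous phosphoglycerate mutase, chr19:41911621-41911870, plus strand: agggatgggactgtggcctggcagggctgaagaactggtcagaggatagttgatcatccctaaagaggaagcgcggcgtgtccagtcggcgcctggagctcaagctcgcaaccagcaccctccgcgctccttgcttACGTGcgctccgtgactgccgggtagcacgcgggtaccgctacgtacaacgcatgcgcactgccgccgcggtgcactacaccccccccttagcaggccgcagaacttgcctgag
Pygm, muscle glycogen phosphorylase, chr19:6384158-6384407, plus strand: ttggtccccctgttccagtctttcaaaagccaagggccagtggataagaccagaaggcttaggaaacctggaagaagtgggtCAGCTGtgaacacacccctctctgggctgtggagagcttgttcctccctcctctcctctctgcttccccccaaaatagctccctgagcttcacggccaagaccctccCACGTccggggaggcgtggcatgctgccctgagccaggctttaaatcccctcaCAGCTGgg
Pygl, liver glycogen phosphorylase, chr12:70227684-70227933, minus strand: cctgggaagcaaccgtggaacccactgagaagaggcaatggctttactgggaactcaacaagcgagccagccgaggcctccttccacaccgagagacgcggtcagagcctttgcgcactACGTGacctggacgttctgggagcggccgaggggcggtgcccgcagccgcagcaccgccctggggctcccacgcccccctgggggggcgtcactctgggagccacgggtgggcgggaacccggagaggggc
The Pgam2 window holds 5 E-boxes and a MEF2 match that begins 80 bases before the start, and the Pgam1 window holds neither. The Pygm window holds 2 E-boxes and the Pygl window none. All 33 members had a promoter in the table, with 46 windows in all. An E-box was found in 86.7% of the 15 windows of muscle-enriched forms, in 30.8% of the 13 windows of ubiquitous or non-muscle forms, in 69.6% of all members' windows and in 66.2% of all 32851 windows. The MEF2 consensus was found in 13.3% of the muscle-enriched windows, in none of the 13 others, in 4.3% of all members' windows and in 2.9% of all. The letters ACGTG were found in 46.7% of the muscle-enriched windows, in 23.1% of the others, in 34.8% of all members' windows and in 16.6% of all windows. These matches are a description of the letters in these windows.

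The first steps trap glucose in the cell and isomerise it. Hexokinase 1 (Hk1), the form of most tissues, had 77.1, 87.3 and 101 CPM in the knockout and 68.95, 76.4 and 97.6 CPM in the control. Its log2 fold change was 0.17 (SE 0.09, edgeR adjusted p = 0.633). Hexokinase 2 (Hk2), the insulin-responsive form of muscle and fat, had 49.8, 89.9 and 112 CPM in the knockout and 47.1, 80.9 and 102 CPM in the control. The lowest Hk2 value of each group was in a library low in fast fibre markers. Glucose phosphate isomerase (Gpi1) had 531, 784 and 866 CPM in the knockout and 577, 782 and 848 CPM in the control, a log2 fold change of 0.04 (SE 0.13, edgeR adjusted p = 0.988). All 3 differences were positive, and the knockout and control ranges overlapped for each gene.

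Phosphofructokinase, which commits sugar to glycolysis, was mostly of the muscle form. Pfkm had 382, 982 and 1340 CPM in the knockout and 460, 971 and 1230 CPM in the control (log2 fold change 0.17, SE 0.30, edgeR adjusted p = 0.954). The liver form Pfkl had 41.0, 64.3 and 82.8 CPM in the knockout and 52.0, 63.0 and 108 CPM in the control. The platelet form Pfkp had 55.3, 62.2 and 67.4 CPM in the knockout and 54.8, 62.4 and 81.5 CPM in the control. Pfkp was among the steadiest members, with a standard error of 0.09 around a log2 fold change of -0.06. Aldolase, which cleaves the sugar, was almost wholly Aldoa, with 2516, 6361 and 8995 CPM in the knockout and 3135, 6912 and 8140 CPM in the control. The second Aldoa identifier, a separate short model just upstream, had only 1.89 to 7.28 CPM in any library. Aldoc, the brain form, had 2.32, 3.92 and 5.19 CPM in the knockout and 2.05, 2.75 and 3.58 CPM in the control, a log2 fold change of 0.47 (SE 0.22, edgeR adjusted p = 0.526). Triose phosphate isomerase (Tpi1) had 1014, 1765 and 2077 CPM in the knockout and 1149, 1761 and 1838 CPM in the control.

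In the lower, ATP-yielding steps the groups overlapped in all 8 members. Phosphoglycerate kinase (Pgk1) had 498, 606 and 667 CPM in the knockout and 447, 565 and 615 CPM in the control (log2 fold change 0.10, SE 0.10, edgeR adjusted p = 0.877). Pgam2 had 361, 953 and 1217 CPM in the knockout and 454, 965 and 1180 CPM in the control. Its ubiquitous partner Pgam1 had 72.1, 95.3 and 144 CPM in the knockout and 85.1, 94.1 and 124 CPM in the control. In Pgam1 the highest library of each group, knockout 6 and control 6, was a library low in fast fibre markers. The muscle enolase Eno3 had 1295, 3223 and 4424 CPM in the knockout and 1394, 3414 and 3687 CPM in the control. Pyruvate kinase (Pkm) had 1179, 1688 and 1762 CPM in the knockout and 1039, 1522 and 1713 CPM in the control. For lactate dehydrogenase, Ldha, which favours lactate formation, had 1107, 1806 and 2019 CPM in the knockout and 1178, 1816 and 1978 CPM in the control. Ldhb, which favours lactate use, had 47.2, 72.3 and 124 CPM in the knockout and 47.8, 89.9 and 106 CPM in the control (log2 fold change -0.13, SE 0.23, edgeR adjusted p = 0.946).

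The ubiquitous enolase Eno1 (ENSMUSG00000063524, chr4:150236721-150248879 on GRCm38, plus strand) had the smallest p among the members with a positive difference. It had 676, 942 and 1201 CPM in the knockout and 686, 772 and 849 CPM in the control. In 5 of 6 knockout libraries Eno1 lay above the highest control, and knockout 1 lay below the lowest. The log2 fold change was 0.30 (SE 0.125, edgeR adjusted p = 0.436), so it did not pass. Eno1 shares sequence with copies elsewhere. Of the 50-base words in its longest transcript, 70.5% also occur in Eno1b and 52.8% in the pseudogene Gm4735, so the authors' counting could have split reads between them. Eno1b had 94.97 CPM in knockout 1 and 8.25 to 11.8 CPM in the other 5 knockout libraries. In the controls Eno1b had 89.1 to 123 CPM in replicates 1, 2, 3 and 6 and 6.93 and 8.60 CPM in replicates 4 and 5. With the 3 genes summed, 2 of 6 knockout libraries lay above the highest control (1085 CPM) and none below the lowest (787 CPM). The summed knockout libraries averaged 1000 ± 141 CPM and controls 876 ± 110 CPM (SD, n = 6 each). The summed log2 fold change was 0.19 (SE 0.11, edgeR adjusted p = 0.678), and the copies made up as much as 21.7% of the sum in a library. Eno1b and Gm4735 are among the 54 loci with discrete levels, and the part of the split in the Eno1 difference was not tested beyond this sum.

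**Figure D3:**
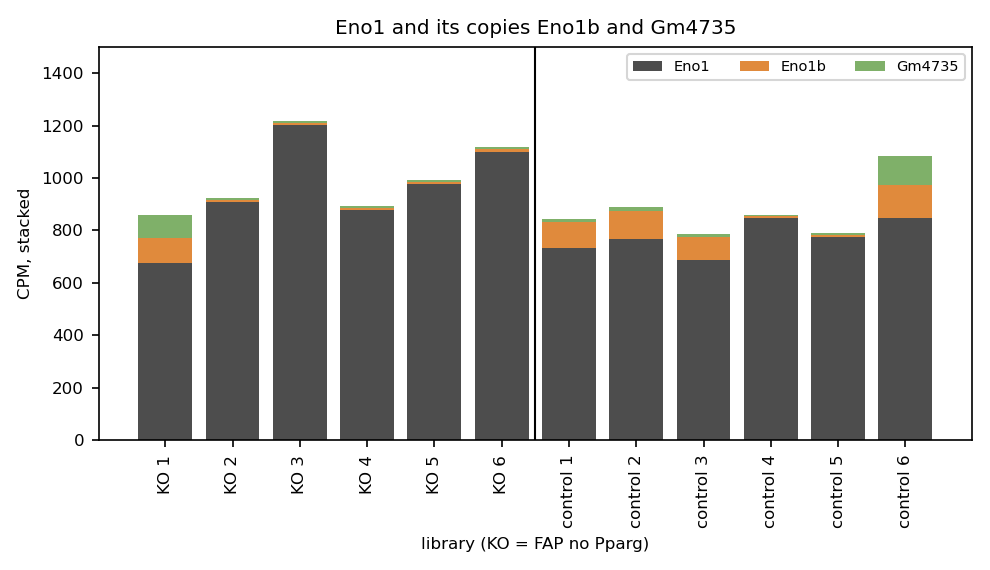
Stacked CPM (y axis) of Eno1 and its copies Eno1b and Gm4735 in each library, the 6 knockouts on the left and the 6 controls on the right. Knockout 1 has the lowest Eno1 of the knockouts and is the only one of them with a tall Eno1b segment; among controls, Eno1b is tall in replicates 1, 2, 3 and 6.

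Other members with near copies kept their values when the copies were added. Of their 50-base words, Pgk1 shared 68.0%, Pgam1 41.5%, Pkm 30.5% and Ldhb 27.0% with genes elsewhere. The copies of these and of Gpi1 supplied at most 2.17% of a sum, and the log2 fold changes moved by less than 0.01. Such sums hold only reads that were assigned to a gene. They cannot show whether reads of shared sequence were left unassigned. Reads of Pdha1 and Map3k15, which overlap on opposite strands over 16.1% of the exonic bases of Pdha1, may not have been told apart. The same holds for Gpi1 with Gm26762 (11.5%) and for Phkg1 with Sumf2 (9.7%). On the same strand, Pkm shares 15.3% of its exonic bases with Gm49759 and Pfkm 10.2% with Gm26513.

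Compared per length, the muscle form was the major transcript of most enzymes that have several forms. These shares use the FPKM values deposited by the authors, which correct for gene length, summed over the listed forms of an enzyme. Pygm made up 95.6% ± 3.4 of glycogen phosphorylase FPKM in the knockout and 94.2% ± 3.9 in the control (SD, n = 6 each). Pfkm made up 94.4% ± 3.9 of phosphofructokinase in the knockout and 93.3% ± 4.2 in the control. Pgam2 made up 93.9% ± 4.7 of the mutase in the knockout and 94.0% ± 3.4 in the control. Eno3 made up 89.6% ± 5.7 of enolase in the knockout and 90.6% ± 4.5 in the control. Ldha, not a fibre-specific gene but the form that prevails in fast muscle, made up 91.2% ± 1.7 in the knockout and 90% ± 1.9 in the control. Hexokinase stood apart, with Hk2 at 57.2% ± 9.4 in the knockout and 57.6% ± 8.8 in the control. In each of these enzymes the group means differed by less than the SD within a group. In the libraries low in fast fibre markers the minor forms other than Ldhb took a larger share: Eno1 made up 21.5% of enolase in knockout 6, 13.7% in control 2 and 16.5% in control 6, and 5.71% to 10.7% in the other 9. These enolase shares leave out the copies Eno1b and Gm4735, which may have taken reads of Eno1 unevenly. Eno1b had 6.93 to 123 CPM over the 12 libraries.

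**Figure D4:**
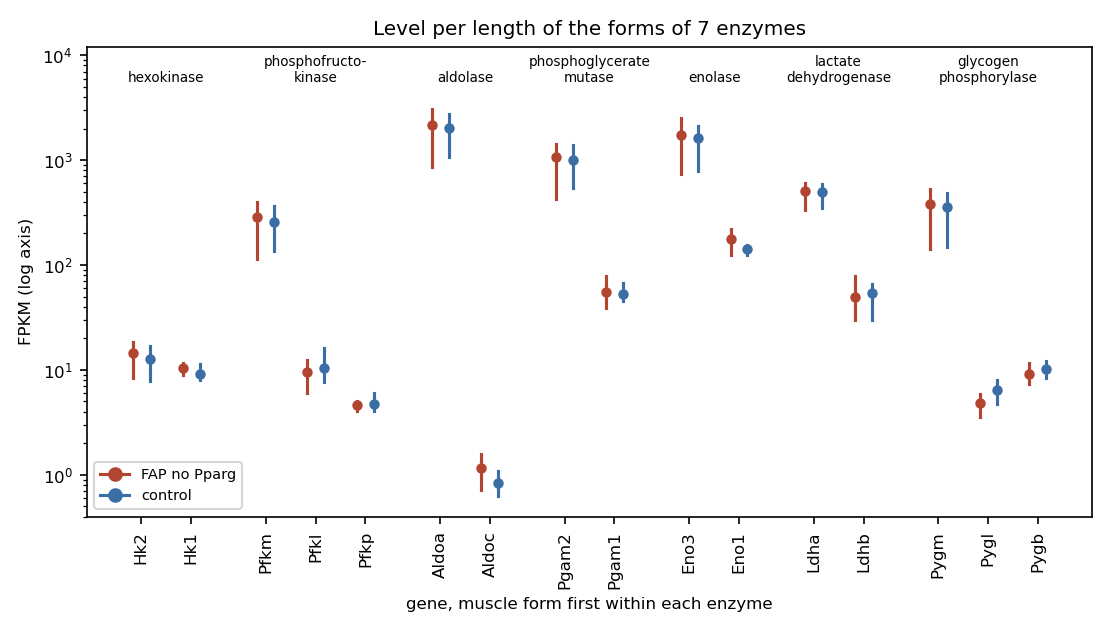
FPKM (y axis, log scale) of the forms of 7 enzymes, with the muscle form, or Ldha, first within each enzyme. Points are means and lines run from the lowest to the highest of 6 libraries, knockout left of control. Within each gene the knockout and control ranges overlap, and Pfkm, Aldoa, Pgam2, Eno3, Ldha and Pygm lie far above the other forms of their enzymes, while Hk2 and Hk1 lie close together.

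The ratio of a muscle form to another form within a library does not depend on how libraries are scaled. The 9 pairs tested include Ldha to Ldhb, although Ldha was in neither class. Over the 9 pairs, 0 ratios differed between knockout and control in an exact permutation test, and 0 had an unadjusted p under 0.05. The test was two-sided over every way to divide the 12 libraries into 6 and 6 (smallest possible p 0.00216). Adjusted over the 9 pairs, the exact p-values lay between 0.935 and 0.944. The widest difference was that of Pygm to Pygl, with a mean log2 ratio of 5.12 ± 0.90 in the knockout and 4.56 ± 1.03 in the control (SD, n = 6 each; difference 0.56, exact permutation p = 0.307). Aldoa to Aldoc had 10.63 ± 0.86 in the knockout and 10.97 ± 0.83 in the control, a difference of -0.35 (exact permutation p = 0.511). Pgam2 to Pgam1 had 3.08 ± 0.94 in the knockout and 3.03 ± 0.82 in the control. Most of the spread lay within the groups. The log2 ratio of Pgam2 to Pgam1 was 1.33 to 2.13 in the 3 libraries low in fast fibre markers and 2.99 to 4.08 in the other 9. For Pygm to Pygl it was 3.13 to 3.49 in the 3 libraries and 4.78 to 6.10 in the 9. Ldha to Ldhb did not separate in this way, with 3.77 to 4.64 in the 3 and 4.03 to 4.83 in the 9.

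**Figure D5:**
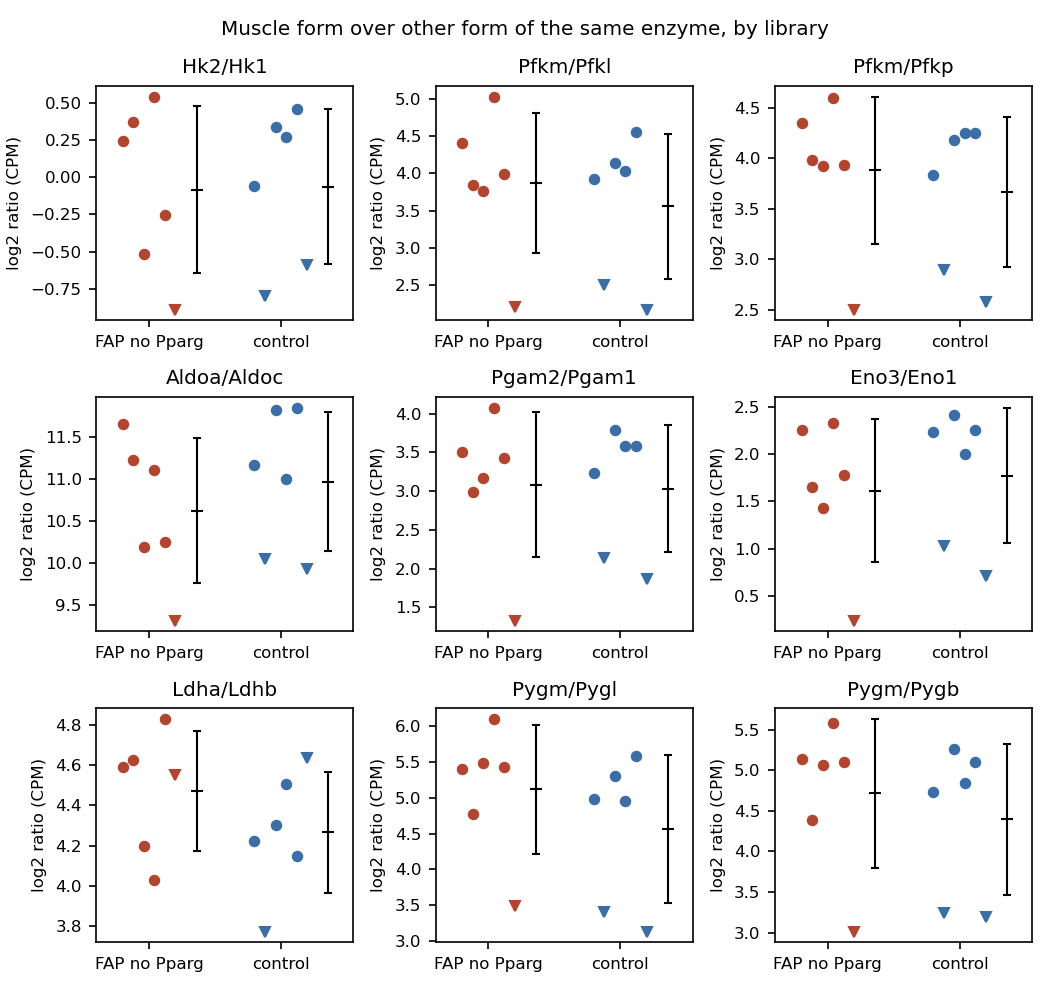
Log2 CPM ratio of the muscle form, or of Ldha, to another form of the same enzyme (y axis) in each library, knockout left of control. Triangles are the 3 libraries low in fast fibre markers, and the bars beside the points are mean ± SD of 6 libraries. In 8 of the 9 panels the triangles lie below every circle, in both groups, and the means of the groups lie within each other's SD.

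Fbp2, the muscle fructose bisphosphatase that runs opposite to phosphofructokinase, was the most variable member, with a 20.2-fold range over the 12 libraries. It had 1.40, 8.43 and 28.3 CPM in the knockout and 1.47, 8.54 and 16.02 CPM in the control. Its log2 fold change of 0.36 had an SE of 0.63 and an interval from -1.005 to 1.72, so that neither a rise nor a fall of 2-fold was outside its reach.

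Genes of glycogen synthesis gave no difference past the threshold. Ugp2, which makes the UDP-glucose donor, had 119, 241 and 290.0 CPM in the knockout and 126, 226 and 280.2 CPM in the control. Gyg, glycogenin, the protein primer of the granule, had 127, 199.8 and 252 CPM in the knockout and 163, 229.6 and 251 CPM in the control. Gys1, the muscle glycogen synthase, had 134, 207 and 225 CPM in the knockout and 152, 188 and 203 CPM in the control (log2 fold change 0.11, SE 0.12, edgeR adjusted p = 0.904). Gbe1, the branching enzyme, had 16.2, 27.4 and 33.2 CPM in the knockout and 24.3, 33.1 and 39.4 CPM in the control. The log2 fold change of Gbe1 was -0.30 (SE 0.17, edgeR adjusted p = 0.672). Ppp1r3a and Ppp1r3c, which bring protein phosphatase 1 to glycogen, were wide in both groups. Ppp1r3a had 16.1, 46.6 and 77.1 CPM in the knockout and 16.4, 49.9 and 69.8 CPM in the control. Ppp1r3c had 27.8, 88.7 and 158 CPM in the knockout and 40.7, 87.3 and 99.9 CPM in the control, with the knockout holding both the highest and the lowest library.

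None of the members of glycogen breakdown passed. The minor phosphorylases had negative differences, while the sign of the Pygm difference changed between fits. Pygm had 455, 1289 and 1723 CPM in the knockout and 486, 1369 and 1586 CPM in the control (log2 fold change 0.09, SE 0.35, edgeR adjusted p = 0.989). Pygl (ENSMUSG00000021069, chr12:70190811-70231488 on GRCm38, minus strand), known from liver, had 25.0, 33.2 and 40.3 CPM in the knockout and 32.8, 43.7 and 55.4 CPM in the control. The knockout range ended below 4 of the 6 controls, but the groups overlapped. The Pygl log2 fold change was -0.43 (SE 0.145, edgeR adjusted p = 0.274), the smallest p of the 33 members, and it did not pass. Pygb, the brain form, had 35.8, 41.2 and 56.4 CPM in the knockout and 41.1, 49.6 and 59.2 CPM in the control (log2 fold change -0.18, SE 0.12, edgeR adjusted p = 0.768). Phosphorylase kinase is built of regulatory and catalytic subunits. Its regulatory subunit Phka1 had 51.2, 149 and 203 CPM in the knockout and 50.3, 167 and 221 CPM in the control. Phkb had 67.3, 129 and 171 CPM in the knockout and 77.7, 131 and 154 CPM in the control. The catalytic Phkg1 had 22.3, 80.3 and 122 CPM in the knockout and 24.7, 97.7 and 134 CPM in the control, with a log2 fold change of -0.09 (SE 0.45, edgeR adjusted p = 0.992).

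At the exit to the mitochondria, Pdha1, the E1 subunit of pyruvate dehydrogenase, had 148, 199.6 and 229.9 CPM in the knockout and 169.8, 198 and 227 CPM in the control. Its log2 fold change was -0.03 (SE 0.11, edgeR adjusted p = 0.989). Pdk2, a kinase that switches the complex off, had 51.1, 113 and 142 CPM in the knockout and 67.3, 126 and 149 CPM in the control. Pdk4, the kinase induced in fasting and by fatty acids, had 50.4, 97.6 and 123 CPM in the knockout and 37.7, 66.2 and 109 CPM in the control. The Pdk4 log2 fold change was 0.51 (SE 0.27, edgeR adjusted p = 0.631), the largest of the 33 members in size, and 3 of 6 knockout libraries lay above the highest control.

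Around the 33 genes, 85 others on 8 lists of related functions were tested, and 2 of them (2.35%) passed, against 0.799% of all genes. The lists were chosen with earlier results of these data known, so the 2 shares are a description with no test. The genes that passed were Pfkfb3 and Tkt, and both fell. Pfkfb3 (chr2:11471433-11554077 on GRCm38, minus strand) makes fructose 2,6-bisphosphate, the activator of phosphofructokinase. It had 39.2, 63.2 and 85.3 CPM in the knockout and 104, 109.7 and 152 CPM in the control, with no overlap. Its log2 fold change was -0.94 (SE 0.16, edgeR adjusted p = 0.0231). Tkt, transketolase of the pentose phosphate pathway (chr14:30548359-30574720 on GRCm38, plus strand), had 89.1, 109.5 and 142 CPM in the knockout and 161, 182 and 218 CPM in the control, again with no overlap. Its log2 fold change was -0.69 (SE 0.12, edgeR adjusted p = 0.0249). The calls held by DESeq2 (adjusted p 2.22e-05 for Pfkfb3 and 6.18e-05 for Tkt) and by limma-voom (0.00781 and 0.00434). They also held in edgeR with the fast fibre marker level as a covariate (adjusted p 0.03 and 0.0166). Neither held without the 3 libraries low in fast fibre markers (edgeR adjusted p 0.169 and 0.165), where 9 of all genes passed. Neither held with counts summed over the sets of libraries that share states (0.251 and 0.267), where 0 of all genes passed. Both calls held in 7 of 12 fits that left out 1 library. Pfkfb3 lost it without knockout 3, 4 or 6 or control 2 or 4 (edgeR adjusted p 0.0553 to 0.0696), and Tkt without knockout 3, 4 or 5 or control 2 or 4 (0.0515 to 0.0731). The summed adipocyte markers were lower in all 6 knockout libraries than in any control, and their part in the levels of Pfkfb3 and Tkt was not tested.

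The other genes of these lists did not pass. Of the 7 genes of the pentose phosphate pathway, 1 fell (Tkt) and 6 did not pass, all 7 differences were negative, 6 with an unadjusted p under 0.05, and their median log2 fold change was -0.28. Over all genes 9.47% had such a p and 49.5% of differences were positive. As the lists were chosen with earlier results of these data known, these shares are a description with no test. The part of the adipocyte markers, whose sum was 554 to 2044 CPM in the knockout and 2680 to 4651 CPM in the control, was not tested for this list either. Transaldolase (Taldo1) had 149, 180.2 and 202 CPM in the knockout and 188, 214 and 245 CPM in the control (edgeR adjusted p = 0.185). Of the 5 genes of fructose 2,6-bisphosphate, 1 fell (Pfkfb3) and 4 did not pass, with Pfkfb1 next by p at -0.52 (edgeR adjusted p = 0.800). Among 14 other genes of pyruvate and its dehydrogenase, 0 passed by edgeR, 3 had an unadjusted p under 0.05 and 11 were negative. Pck1, which makes phosphoenolpyruvate for new glucose and for glycerol in fat cells, had 3.87, 25.0 and 39.2 CPM in the knockout and 62.7, 89.98 and 129.6 CPM in the control. Its groups did not overlap, and its log2 fold change of -2.07 (SE 0.44) missed the threshold at an edgeR adjusted p of 0.0515. Pyruvate carboxylase (Pcx) had 29.0, 59.9 and 95.1 CPM in the knockout and 91.7, 117 and 161 CPM in the control (edgeR adjusted p = 0.123). Of 14 other tested glycogen genes 0 passed by edgeR and 2 had an unadjusted p under 0.05. Ppp1r3d, another glycogen-targeting subunit, had 6.82, 8.86 and 11.3 CPM in the knockout and 11.7, 13.7 and 21.3 CPM in the control, without overlap (edgeR adjusted p = 0.0574). Ppp1r3e of the same family had a log2 fold change of -0.89 (edgeR adjusted p = 0.347).

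Transporters, shuttles and regulators likewise gave no call. Of 10 glucose and lactate transport genes 0 passed by edgeR, 1 had an unadjusted p under 0.05 and 5 were positive. Slc16a7, a monocarboxylate carrier, had a log2 fold change of -0.37 (edgeR adjusted p = 0.379), and Slc16a1 of -0.15 (0.828). Slc2a4, the insulin-responsive glucose carrier, is also 1 of the 10 adipocyte markers and had 29.5, 113 and 174 CPM in the knockout and 59.9, 138 and 167 CPM in the control. Of 9 shuttle genes 0 passed by edgeR and 1 had an unadjusted p under 0.05. That gene was Gpd1, glycerol phosphate dehydrogenase, with 86.4, 216 and 331 CPM in the knockout and 288, 450.4 and 592 CPM in the control (log2 fold change -1.10, SE 0.29, edgeR adjusted p = 0.125), followed by Mdh1 at -0.20 (0.878). Of 14 regulators 0 passed by edgeR and 3 had an unadjusted p under 0.05. Mef2d, a muscle transcription factor, had 138, 159.6 and 189 CPM in the knockout and 130.0, 135 and 139.8 CPM in the control (edgeR adjusted p = 0.234). Mlxip, a glucose-sensing factor, had a log2 fold change of 0.16 (edgeR adjusted p = 0.452). Of 12 other tested glycolytic genes 0 passed by edgeR and 0 had an unadjusted p under 0.05, with Pgm5 at 0.19 (0.780) and Eno2 at -0.33 (0.828).

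Gapdh, the dehydrogenase between the steps of Tpi1 and Pgk1, is not among the 33 genes and is named here after its values were seen. It had 869, 675, 516, 481, 544 and 32.1 CPM in knockout 1 to 6, and 45.1, 23.9, 955, 963, 248 and 263 CPM in control 1 to 6. High and low libraries occurred in both groups, and control 1, which was not among the libraries low in fast fibre markers, was low in Gapdh. The edgeR adjusted p was 0.973. Of its 50-base words 27.2% also occur in genes elsewhere, many of them processed pseudogenes, and Gapdh is among the 54 loci with discrete levels.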

How the data were processed

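Whole-muscle RNA of 6 knockout and 6 control libraries was sequenced after poly-T selection, per the labels' protocols; these describe directional and non-directional preparation and do not say which was used. The authors deposited raw counts of reads for each gene, as whole numbers, and FPKM values that are proportional within a library to count over gene length. The submitters' processing notes name fastp, HISAT2 2.0.5, featureCounts and the build GRCm38 (mm10). For the strand setting, nothing was given in the sources used here.

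Counts were analysed in R 4.3.3 with edgeR 4.0.16: filterByExpr (minimum count 10, minimum total 15), TMM scaling, robust quasi-likelihood F tests, and Benjamini-Hochberg adjustment over 16393 genes with a threshold of 0.05. Log2 ratios of enzyme forms used log2 CPM with a prior count of 2. On simulated counts of 16223 genes for this comparison, the test found 64 of 100 genes changed 1.5-fold and 94 of 100 changed 2-fold, with 5 false calls among 163. In the measured counts the median standard error of the log2 fold change was 0.131 over all tested genes. It was 0.208 for the 33 members and 0.329 for the muscle-enriched forms. The share found at the spread of the members or of the muscle-enriched forms was not tested. Alternatives were DESeq2 1.42.0, limma-voom and limma-trend (limma 3.58.1; log2 FPKM with a pseudocount of 1), other scalings, the replicate number as a block, no filter on low counts, and each library left out. No 2 libraries of a group agreed within sampling noise (chi-square per degree of freedom from 12.9 to 159 over 30 pairs). Of the identifiers, 54409 occur in GENCODE M21 and 53499 have the same coordinates and strand there. Shared sequence was measured with 50-base words of the longest transcript.

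The text names all 33 members and, from each list of related genes, those past the threshold and the 2 genes with the smallest p; Slc2a4 and Gapdh were named after their values were seen. Members and lists were chosen with earlier results of these data known. Gyg1 on a list was not found under that symbol, since the table calls it Gyg.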

Additional observations from a re-analysis of the deposited data

Results flagged for a closer look

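In each group of 6 libraries, the members' CPM and the 9 ratios of enzyme forms were checked for a library far from the others, and 5 of 84 groups (5.95%) held one, where chance gives about 5%. Knockout 6 had the lowest Gys1 at 134 CPM, with the next knockout at 198 CPM. It also had the lowest Pdk2 at 51.1 CPM, with the next at 108 CPM, and the lowest log2 ratio of Pfkm to Pfkp at 2.50, with the next at 3.92. Control 6 had the lowest Ldhb at 47.8 CPM, with the next control at 85.3 CPM, and the highest Pfkp at 81.5 CPM, with the next at 64.8 CPM. Knockout 6 and control 6 are also 2 of the 3 libraries with the lowest fast fibre markers (13650 and 17250 CPM). The part of the fibre content in these values was not tested.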

How the results depend on the processing

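The count of members that passed was 0 in all 23 settings, and so was the count of enzyme form ratios in all 17. The smallest adjusted p over 759 values of members was 0.0754 (Pygl), and over 153 values of ratios it was 0.532. The count of all genes that passed, 131, was 399 by DESeq2, 389 by limma-voom and 236 with the replicate number as a block. Deviations of same-numbered libraries correlated at over 0.1 in 2 of 6 pairs (from -0.133 to 0.464, the highest for number 6, the only pair of which both libraries are low in fast fibre markers and the only 1 of 6 best with its own number). The numbers were therefore not taken as pairing the samples, and the block passed 0 members. Of the alternatives chosen after seeing the data, leaving out knockout 6, control 2 and control 6 gave 9 genes, the fast fibre marker level as a covariate gave 200 and counts summed over sets of libraries gave 0 (edgeR, 1127 at an unadjusted p under 0.05). Leaving out 1 library gave 6 to 214 genes: 200, 214, 6, 9, 77 and 35 without knockout 1, 2, 3, 4, 5 and 6, and 65, 24, 72 and 12 without control 1, 2, 3 and 4. Pfkfb3 and Tkt lost their call without the 3 libraries (log2 fold changes -0.88 and -0.63, edgeR adjusted p 0.169 and 0.165) and over the sets (-0.86 and -0.68, 0.251 and 0.267). With the covariate both kept it (-0.93 and -0.66, edgeR adjusted p 0.03 and 0.0166).

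Small differences changed sign. Without the 3 libraries, log2 fold changes were -0.07 for Aldoa, -0.048 for Eno3, -0.046 for Ldha, -0.082 for Pygm, -0.05 for Pgam2, -0.002 for Gpi1, -0.061 for Ugp2, -0.026 for Phkb, -0.054 for Ppp1r3a, 0.018 for Pfkl and 0.005 for Pfkp, and -0.11 for the ratio of Pgam2 to Pgam1. With the covariate they were -0.081 for Aldoa, -0.033 for Eno3, -0.031 for Ldha, -0.045 for Tpi1, -0.052 for Pygm, -0.062 for Pgam2, -0.025 for Gpi1, -0.061 for Ugp2, -0.039 for Phkb and -0.073 for Ppp1r3a. By limma-voom Ugp2 was at -0.003 and Fbp2 at -0.002. Phka1 was at 0.052 with the block, 0.068 on FPKM and 0.033 over the sets, and Phkg1 was at 0.005 on FPKM. The cause was not tested. Leaving out 1 library gave ranges that crossed 0 for Aldoa (-0.066 to 0.231), Eno3 (-0.04 to 0.258), Fbp2 (-0.222 to 0.66), Gpi1 (-0.025 to 0.118), Ldha (-0.039 to 0.139), Pdha1 (-0.07 to 0.042), Pdk2 (-0.165 to 0.096), Pfkp (-0.091 to 0.021), Pgam1 (-0.064 to 0.153), Pgam2 (-0.047 to 0.246), Phka1 (-0.203 to 0.151), Phkb (-0.025 to 0.203), Phkg1 (-0.281 to 0.105), Ppp1r3a (-0.07 to 0.286), Pygm (-0.068 to 0.261), Tpi1 (-0.035 to 0.153) and Ugp2 (-0.075 to 0.163). The same held for the log2 ratios of Eno3 to Eno1 (-0.37 to 0.117), Hk2 to Hk1 (-0.166 to 0.142) and Pgam2 to Pgam1 (-0.179 to 0.404), while Pfkm to Pfkp reached 0.00 (0.00 to 0.493). Eno1 stayed positive (0.22 to 0.38) and Pygl negative (-0.49 to -0.35). Aldoc and Fbp2 have the fewest reads of the 33 members.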
